A study of Mus musculus with 4 samples.

Results

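The genes described here are 34 direct targets of the transcription factor p53 other than Cdkn1a and Mdm2. They were found by gene symbol among the 55487 genes of the count table, and all 34 were measured. Wild-type mouse embryonic fibroblasts (MEFs), primary cells prepared from C57BL/6J embryos, were cultured for 24 h with pigment epithelium-derived factor (PEDF, a secreted glycoprotein of the serpin family) at 100 ng/mL or left without it. The PEDF was a recombinant protein that had been purified from mammalian cells, and all cells were grown in serum. Polyadenylated RNA was sequenced from 1 control and 1 PEDF library in each of 2 experiments, and the MEFs of each experiment came from different embryos. The sample labels give the cells as passage 2, whereas the text of the study gives a later passage. As the cells were wild-type, no library lacked p53, and the labels name no DNA-damaging agent, so the libraries show how these genes were expressed in cultured MEFs and not how far p53 drove them. Fewer cells that express a gene and less RNA per cell cannot be told apart in bulk RNA.

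The libraries held 14722848 to 18144640 counts, with reads on 22135 to 22647 genes each. Markers of fibroblasts were abundant, with a summed level of 13400 to 17710 TPM (a share of all transcripts in a library that takes their length into account). The 8 macrophage markers summed to 116 to 205 TPM, with Lyz2 as the largest, and the 6 skeletal muscle markers to 433 to 614 TPM. Of the endothelial markers, Tie1 was at 0 in all 4 libraries, and the 6 together reached at most 6.37 TPM. The 8 epithelial and keratinocyte markers summed to 75.5 to 94.4 TPM and the 5 neural markers to 236 to 284 TPM. Summed by library, the fibroblast markers were lower with PEDF in both experiments and the muscle markers were higher in both. The fibroblast sum was mostly Col1a1. It was lower with PEDF in both experiments, as were Col1a2, Col3a1, Pdgfra and Pdgfrb, whereas Thy1, Dcn and Lum were higher in both. Actc1 was the largest of the muscle markers and was higher with PEDF in both experiments, as were Myog and Des. Myod1 and Myh3 were higher only in experiment 1, and Ckm was lower in experiment 1. The macrophage sum went from 204.9 to 197.8 TPM with PEDF in experiment 1 and from 116.3 to 166.3 TPM in experiment 2. With the block and the length correction, 2 fibroblast markers were higher and 2 lower with PEDF past an adjusted p of 0.05 in edgeR, and 1 macrophage and 1 muscle marker were higher. Their part in the values below was not tested.

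p53 is held at a low level by Mdm2, which marks it for degradation, and it accumulates after DNA damage, oxidative stress or oncogene signals. It binds a response element made of 2 half-sites of 10 bases each and switches on genes that stop the cell cycle, repair DNA, adjust metabolism or kill the cell. MEFs kept in culture enter senescence through the Arf protein and p53, and the RNA was sequenced to look for genes that could carry the effect of PEDF on such cells.

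The response element is shown because it is what the genes have in common by their choice as p53 targets. RefSeq promoter windows of the GRCm38.p6 build, from 250 bases before to 50 bases after a gene's start, were at hand for 26 of the 34 genes. They were searched on both strands for the p53 half-site consensus. At least 1 complete half-site was found in 9 of these 26 genes (34.6%), namely Abhd4, Aen, Bax, Ccng1, Ei24, Gadd45a, Polk, Ppm1d and Sesn1, and in 9.6% of the 27025 genes with a window. A pair of decamers with at least 18 of 20 bases matching, separated by up to 13 bases, was found in 4 of the 26 (15.4%) and in 4.7% of all genes. A gene counted if any of its windows matched, and the 26 genes had 38 windows against 32851 for the 27025 genes. The 26 thus had more windows per gene, and sequence outside the windows was not searched. The 4 pairs are printed below 5′ to 3′ on the strand of the gene, with 30 bases each and both decamers in capitals.
Ccng1, chr11:40755457-40755486, minus strand: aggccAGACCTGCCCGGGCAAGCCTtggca
Bax, chr7:45467074-45467103, minus strand: tcccAGGCAAGCTTtGAACTTGCGGcaatt
Gadd45a, chr6:67037436-67037465, minus strand: ctGGACCTGGTTggctgaGGGCTAGCCCca
Sesn1, chr10:41887250-41887279, plus strand: tggGCGCTTGGCCttcAAGCTTGTTTttgc
The pair of Ccng1 matched at 19 of 20 bases with no spacer, and those of Bax, Gadd45a and Sesn1 matched at 18 of 20 with spacers of 1, 6 and 3 bases. Counted from the start of the gene, the first decamers of the pairs begin at positions from -201 (Bax) to -56 (Gadd45a). In GENCODE M21 the printed stretches of Ccng1 and Bax lie upstream of the gene, and that of Gadd45a reaches into its first exon. That of Sesn1 lies in an intron, before the start of a shorter transcript. A match describes the letters in the window, and binding of p53 was not measured here.

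The p53 target genes were expressed well above the typical gene in these MEFs. Their median level was 33.9 TPM, compared with 9.19 TPM over the 19384 genes tested, and 31 of the 34 lay above the latter value. The genes ranged from 2.73 to 486 TPM as means of the 4 libraries. The 5 most abundant genes made up 59.5% of the summed level. In the control and PEDF libraries of experiment 1 the genes summed to 2358 and 2357 TPM, and in those of experiment 2 to 2328 and 2484 TPM.

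Phlda3, which encodes a pleckstrin homology domain protein that restrains AKT, was the most abundant. Its levels were 491.9 and 502.9 TPM in the control and PEDF libraries of experiment 1 and 458.6 and 491.8 TPM in those of experiment 2. Ccng1, which encodes cyclin G1, a partner of protein phosphatase 2A in the control of Mdm2, had 395.5 and 395.3 TPM in experiment 1 and 396.3 and 436.1 TPM in experiment 2. Bax, the pore-forming protein of the mitochondrial outer membrane, had 213.3 and 222.3 TPM in experiment 1 and 207.1 and 218.4 TPM in experiment 2. These 3 genes kept their order in every library, and the ranges of neighbours did not overlap. Next came Ephx1 (microsomal epoxide hydrolase) at 196 TPM and Plk2 (a polo-like kinase) at 115 TPM.

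At the other end, Rrm2b, the p53-inducible small subunit of ribonucleotide reductase, had 2.32 and 2.82 TPM in the control and PEDF libraries of experiment 1 and 2.54 and 3.24 TPM in those of experiment 2. Dram1, a lysosomal membrane protein that promotes autophagy, had 7.58 and 9.38 TPM in experiment 1 and 8.69 and 7.48 TPM in experiment 2. Xpc, which recognizes damaged DNA in nucleotide excision repair, had 7.47 and 7.96 TPM in experiment 1 and 8.98 and 9.88 TPM in experiment 2. Dram1 and Xpc overlapped in level, and both were above Rrm2b in every library. Even these genes were counted with 111 or more reads in each library, so none of the 34 was limited by a count near 0.

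**Figure D1:**
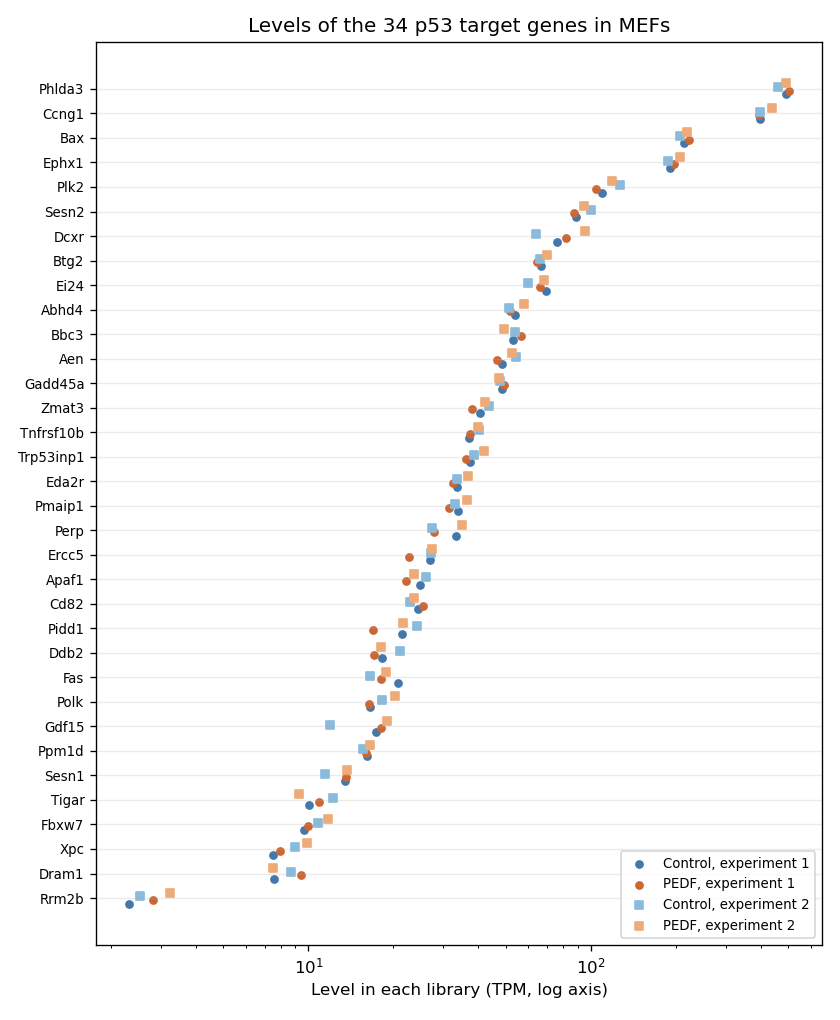
Level of each of the 34 p53 target genes in the 4 libraries, in TPM on a log axis, ordered by the mean. Circles are experiment 1, squares experiment 2, blue is control and orange is PEDF. The libraries of a gene lie close together compared with the range from 2.73 TPM (Rrm2b) to 486 TPM (Phlda3).

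PEDF-treated MEFs differed little from control MEFs in the p53 target genes. When the experiment was left out of the model, the quasi-likelihood test of edgeR gave none of the 34 an adjusted p under 0.05, where 0.00516% of all genes tested had one, and none did in DESeq2 (0.0191% of all genes) or in limma on log2(TPM + 1) (0% of all genes). DESeq2 gave no adjusted p for 6 of the 34, namely Fas, Dram1, Rrm2b, Xpc, Tigar and Gdf15, so these could not pass in it. With the experiment as a block, 1 gene (Dcxr) passed this threshold, where 3.75% of all genes tested did, and it no longer passed with the length correction (adjusted p = 0.065 in edgeR). Without the block, an unadjusted p under 0.05 was reached by 1 of the 34 (2.94%) in edgeR, against 6.88% of all genes tested. The share was 9.5% in the 10453 genes with at least as many counts as the least counted of the 34. In DESeq2 such a p was reached by 1 of the 34 (2.94%), against 1.46% of the 26183 genes it tested and 332 of those 10453 genes. The log2 fold changes of PEDF against control lay between -0.23 (Pidd1) and 0.37 (Gdf15), with a median of 0.067, compared with 0.001 over all genes tested. The median was 0.026 without control replicate 2, 0.022 without PEDF replicate 2, and 0.049 and 0.061 without PEDF or control replicate 1. The fold change was above 0 in 25 genes and below 0 in 9, but in 21 and 13 once gene length was taken into account and in 23 and 11 by limma on TPM. Over all genes tested, 50.2% were above 0.

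The small size of the differences was common to well-expressed genes. The median size of the log2 fold change, without its sign, was 0.083 in the p53 target genes and 0.085 in the 10453 genes with at least as many counts as the least counted of them (583 over the 4 libraries). The standard error of a log2 fold change was 0.069 to 0.182 with a median of 0.097. In 31 of the 34 genes the 95% interval lay wholly within a 1.5-fold change in either direction, and in 21 it lay within 1.25-fold. Dcxr, Gdf15 and Rrm2b were the 3 genes whose interval reached a 1.5-fold rise, and no interval reached a 1.5-fold fall. With the block and the length correction, 32 intervals lay within 1.5-fold and 24 within 1.25-fold. The CPM (counts scaled to a common library size) of both PEDF libraries lay above that of both control libraries in 7 genes, or 20.6% of the 34 against 18.9% of all genes tested. They lay below in 3 genes, or 8.82% against 18.4%.

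**Figure D2:**
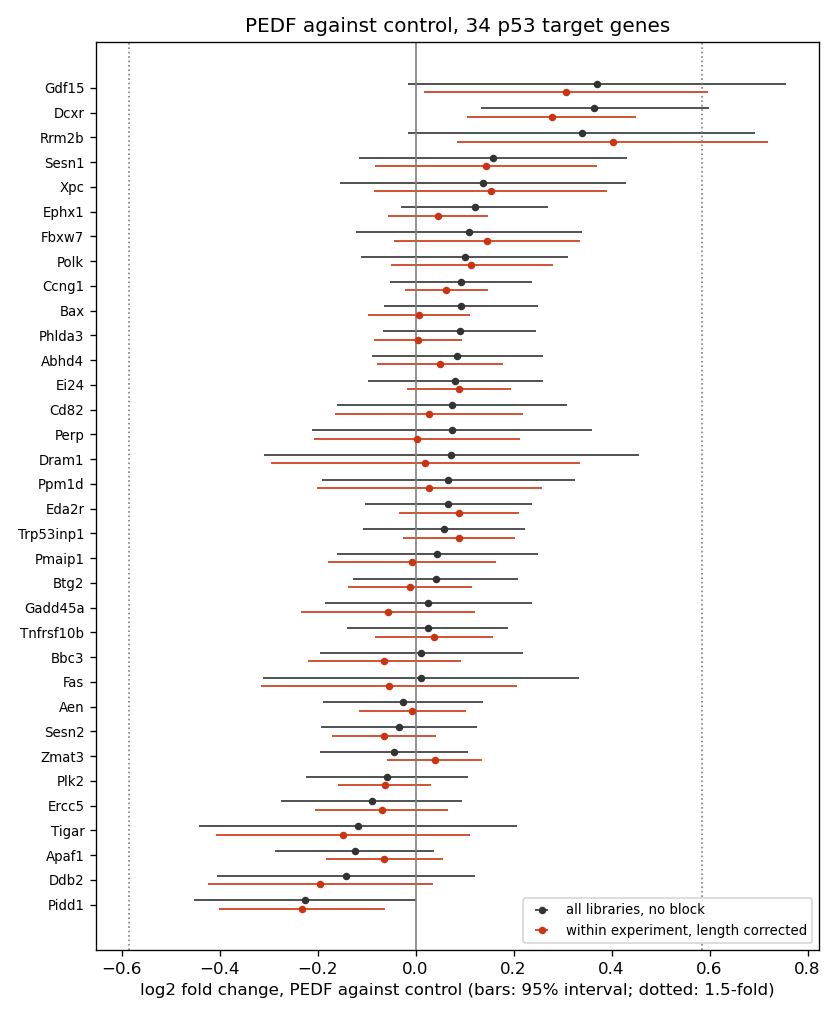
Log2 fold change of PEDF against control for the 34 p53 target genes, as points with 95% intervals. Black is the fit without a term for the experiment and red is the fit within experiments with gene length taken into account, and dotted lines mark a 1.5-fold change. Most intervals include 0 in both fits, and the points of Gdf15, Dcxr and Rrm2b lie farthest to the right at 0.37, 0.37 and 0.34 in the black fit. Points above 0 number 25 in black and 21 in red.

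The 5 genes of the mitochondrial death pathway had log2 fold changes between -0.23 and 0.092, and 3 of them were above 0, or 1 with the block and the length correction. Among them, Bax, Bbc3 and Pmaip1 (the last 2 encode the BH3-only proteins PUMA and NOXA) had log2 fold changes of 0.092, 0.012 and 0.044. Apaf1, the scaffold of the apoptosome, had -0.12, with both PEDF libraries below both control libraries. Pidd1, the death domain protein that activates caspase-2, had the lowest value of the 34. Its CPM was 34.5 in the control and 27.9 in the PEDF library of experiment 1, and 38.01 and 34.01 in those of experiment 2. Both PEDF libraries of Pidd1 were thus below both control libraries, though the PEDF library of experiment 2 was only just below the control library of experiment 1. The log2 fold change of Pidd1 was -0.23 (standard error 0.11, adjusted p = 0.719 in edgeR). It was -0.38 without PEDF replicate 2, -0.15 without control replicate 2 and -0.094 without PEDF replicate 1. With the block, the adjusted p of Pidd1 was 0.128 in edgeR, and with the block and the length correction it was 0.159. The highest value of the group was that of Bax, with 119.4 and 127.8 CPM in experiment 1 and 112.7 and 119.6 CPM in experiment 2. For Bax the PEDF library of experiment 2 was only just above the control library of experiment 1. With the block and the length correction the value of Bax was 0.007 and that of Apaf1 -0.064.

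The 3 death receptor genes had log2 fold changes between 0.011 and 0.067. Eda2r, a receptor of the tumor necrosis factor family, had 70.3 and 69.7 CPM in the control and PEDF libraries of experiment 1 and 68.3 and 75.4 CPM in those of experiment 2 and differed by 0.067 ± 0.080 on the log2 scale (standard error). The groups overlapped. Tnfrsf10b, the mouse receptor for TRAIL, had 0.025. Fas had 0.011, with 15.3 and 13.6 CPM in experiment 1 and 11.8 and 13.5 CPM in experiment 2, so that the direction of Fas differed between the experiments.

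Among the 8 other genes of cell death and survival, log2 fold changes lay between -0.044 and 0.090. Phlda3 was the highest of the group, with 272.3 and 286.0 CPM in experiment 1 and 247.0 and 266.5 CPM in experiment 2, higher with PEDF within each experiment but overlapping between experiments. Its log2 fold change of 0.090 became 0.005 with the block and the length correction, where Ei24 (0.089) was the highest of the group. Zmat3, an RNA-binding zinc finger protein that alters splicing, was the lowest, with 164.5 and 158.2 CPM in experiment 1 and 172.1 and 168.3 CPM in experiment 2. Zmat3 was lower with PEDF in both experiments, and its log2 fold change of -0.044 became 0.039 with the length correction described below. The apoptosis-enhancing nuclease gene Aen had -0.026, and Ei24, Trp53inp1, Perp, Dram1 and Abhd4, which take part in autophagy, cell adhesion and lipid metabolism, had 0.058 to 0.085. Perp, a membrane protein of cell junctions, was lower with PEDF in experiment 1 (23.1 and 19.8 CPM) and higher in experiment 2 (18.4 and 23.7 CPM).

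The 6 genes of cell cycle arrest and feedback had log2 fold changes between -0.058 and 0.11. Fbxw7, a ubiquitin ligase subunit that directs the degradation of cyclin E, had 24.1 and 25.6 CPM in the control and PEDF libraries of experiment 1 and 26.3 and 28.7 CPM in those of experiment 2 and differed by 0.11 ± 0.11 on the log2 scale (standard error). It was higher with PEDF in each experiment, and the groups overlapped. The log2 fold change of Fbxw7 ran from 0.024 to 0.19 when single libraries were left out. Plk2, which acts in centriole duplication, had 174.5 and 171.1 CPM in experiment 1 and 197.1 and 185.7 CPM in experiment 2, a log2 fold change of -0.058. Ccng1 had 493.2 and 506.5 CPM in experiment 1 and 480.9 and 532.4 CPM in experiment 2, and its PEDF libraries were the 2 highest. The values of the antiproliferative gene Btg2, of Gadd45a and of Ppm1d, a phosphatase that switches off p53 signaling, were 0.041, 0.026 and 0.067.

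DNA repair and nucleotide supply held some of the larger values, in genes with fewer counts. Rrm2b had 111 and 146 counts in the control and PEDF libraries of experiment 1 and 143 and 183 counts in those of experiment 2, or 7.52, 9.39, 8.02 and 10.3 CPM. Both PEDF libraries were above both control libraries. The log2 fold change of Rrm2b was 0.34 (standard error 0.17, adjusted p = 0.731 in edgeR), and its 95% interval in fold ran from 0.990 to 1.62. Ddb2, which recognizes lesions caused by ultraviolet light, was lower, with 17.75 and 16.99 CPM in experiment 1 and 19.96 and 17.23 CPM in experiment 2. Its log2 fold change was -0.14 (standard error 0.12) and ran from -0.22 to -0.054 when single libraries were left out. Of the exon length of Ddb2, 23.8% overlaps Acp2 on the opposite strand. Xpc, Polk (a polymerase that copies past lesions) and Ercc5 (an endonuclease of excision repair) had 0.14, 0.10 and -0.090.

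The 7 genes of redox control, metabolism and secreted or membrane proteins held the remaining large values. Dcxr encodes dicarbonyl and L-xylulose reductase, an enzyme that reduces reactive carbonyl compounds. It lies on chromosome 11 from 120725399 to 120727281 in GRCm38 and has 1144 bp of exons, the shortest of the 34. The counts of Dcxr were 456 and 530 in the control and PEDF libraries of experiment 1 and 452 and 678 in those of experiment 2, or 30.9, 34.1, 25.3 and 38.1 CPM. Both PEDF libraries were above both control libraries, and the gap was mainly that of experiment 2. The mean was 28.1 ± 3.93 CPM (SD, n = 2) in control and 36.1 ± 2.80 CPM (SD, n = 2) in PEDF-treated MEFs, and the fit gave a level 28.8% higher. The log2 fold change was 0.37 (standard error 0.11, unadjusted p = 0.00424 and adjusted p = 0.696 in edgeR), and it was 0.22 without control replicate 2 and 0.51 without control replicate 1, the latter with an adjusted p of 0.0308 in edgeR. The block described below changed this call, to an adjusted p of 0.00211 in edgeR.

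Gdf15, a secreted cytokine of the TGF-β superfamily that responds to many stresses, had 169 and 190 counts in experiment 1 and 136 and 218 counts in experiment 2, or 11.5, 12.2, 7.62 and 12.2 CPM. The PEDF libraries were alike, and the control library of experiment 2 stood lower than the other 3. The log2 fold change of Gdf15 was 0.37 (standard error 0.18, adjusted p = 0.731 in edgeR), and it ran from 0.094 to 0.68 when single libraries were left out. It was 0.094 without control replicate 2 and 0.68 without control replicate 1, so its size rested on the control libraries. Tigar, a phosphatase that lowers glycolysis, had 13.01 and 14.60 CPM in experiment 1 and 15.47 and 11.79 CPM in experiment 2, opposite directions that gave -0.12 ± 0.15 on the log2 scale (standard error). The sestrin genes Sesn1 and Sesn2, which restrain mTORC1, had 0.16 and -0.034, and Ephx1 and the tetraspanin gene Cd82 had 0.12 and 0.074. The value of Sesn1 ran from 0.024 to 0.29 when single libraries were left out.

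**Figure D3:**
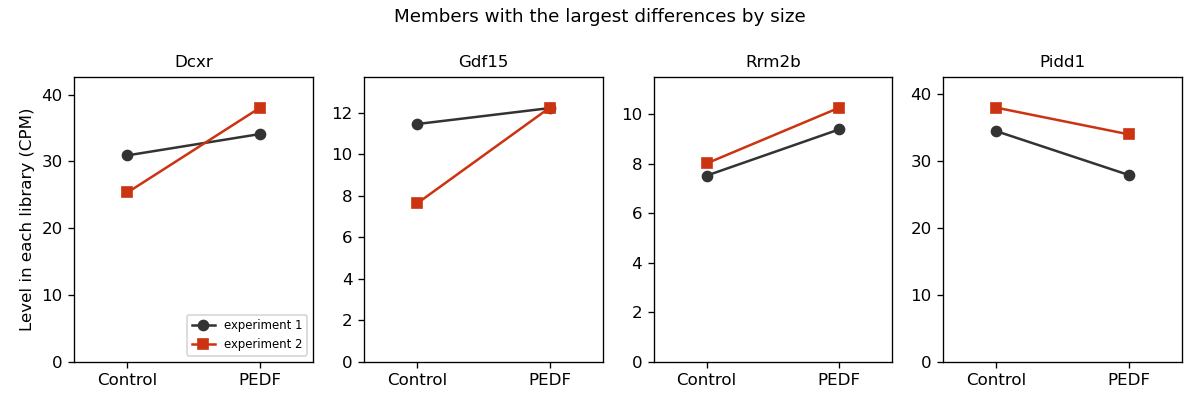
CPM in the control and PEDF libraries for the 4 genes with the largest log2 fold changes in size, with a line for each experiment and an axis from 0 in each panel. For Dcxr and Gdf15 the line of experiment 2 is steeper than that of experiment 1, whereas both lines of Rrm2b go up and both lines of Pidd1 go down by more alike amounts.

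Within experiments, control and PEDF libraries share a MEF preparation, so a further fit took the experiment as a block. With the block, edgeR gave an adjusted p under 0.05 to 1 of the 34 genes. This gene was Dcxr, at 0.37 ± 0.089 on the log2 scale (standard error; adjusted p = 0.00211 by edgeR). The median over the 34 genes was 0.065.

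The ratio of PEDF to control followed the length of the gene in both experiments. Over 10720 well-expressed genes, the log2 ratio changed by -0.0402 per doubling of exon length in experiment 1 and by -0.056 in experiment 2, so that short genes were relatively higher with PEDF. The p53 target genes range from 1144 bp (Dcxr) to 11435 bp (Zmat3) of exons. When the trend had been removed from each library, edgeR with the block gave none of the 34 genes an adjusted p under 0.05, where 2.16% of all genes tested had one. The adjusted p of Dcxr was then 0.065, at 0.28 ± 0.088 on the log2 scale (standard error). With the GC content of the transcripts also removed, Dcxr had an adjusted p of 0.0281 in edgeR and was the 1 gene of the 34 with one under 0.05, against 2.09% of all genes tested.

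The length correction brought the p53 target genes nearer to 0. Their median log2 fold change went from 0.065 with the block to 0.024 with the block and the correction, and the median over all genes tested was then -0.004. Among the 17 shorter genes (1144 to 3475 bp), the median went from 0.067 with the block to 0.005 with the block and the correction, and the number above 0 from 15 to 10. Among the 17 longer genes (3512 to 11435 bp), the median was 0.058 and 0.063, and the number above 0 was 10 and 11. Bbc3, Pmaip1, Fas, Btg2 and Gadd45a went from above 0 to below it, and Zmat3 from below to above. An unadjusted p under 0.05 was found in 4 of the 34 genes with the correction, or 11.8% against 11.7% of all genes tested and 16.7% of the genes with at least as many counts. These were Dcxr, Pidd1 (-0.23), Rrm2b (0.40) and Gdf15 (0.31). Rrm2b, with 9134 bp of exons, was the largest of the 34 after the correction, and its adjusted p was 0.226 in edgeR.

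**Figure D4:**
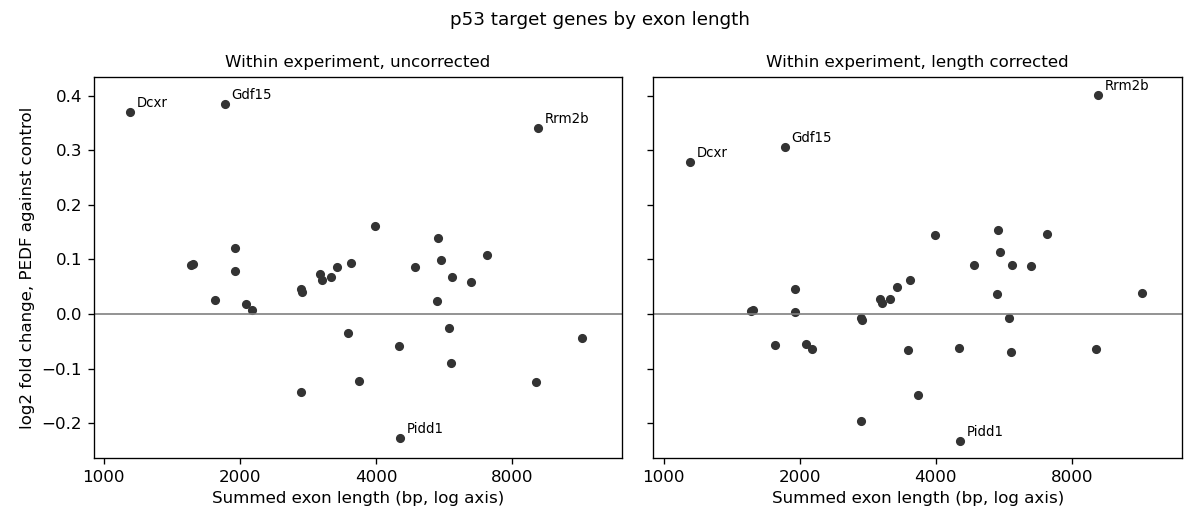
Log2 fold change of PEDF against control within experiments for the 34 p53 target genes, against summed exon length on a log axis, before (left) and after (right) the length trend was removed. The shortest genes move down to lie around 0, apart from Dcxr and Gdf15 at 0.28 and 0.31, and Rrm2b among the longest moves up to 0.40.

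The direction differed between the experiments in 13 of the 34 genes (38.2%), a share below that of all genes tested (43.4%). With length taken into account, the ratio of PEDF to control was above 1 in both experiments for 15 genes (44.1%, against 27.3% of all genes tested) and below 1 in both for 6 (17.6% against 29.3%). In the 10453 genes with at least as many counts as the least counted of the 34, the shares were 30.8% above in both, 29.3% below in both and 39.9% opposite. The median length-corrected log2 ratio was 0.008 in experiment 1 and 0.056 in experiment 2. Rrm2b was the gene with the highest ratio in experiment 1 and was also high in experiment 2, at 0.37 and 0.42. Gdf15 had 0.033 and 0.58, Dcxr 0.073 and 0.47, and Sesn1 0.034 and 0.25. Pidd1 had -0.31 and -0.16 and Ddb2 -0.11 and -0.27. The strongest opposite pairs were Perp (-0.28 and 0.27), Dram1 (0.30 and -0.25), and Tigar (0.14 and -0.42).

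**Figure D5:**
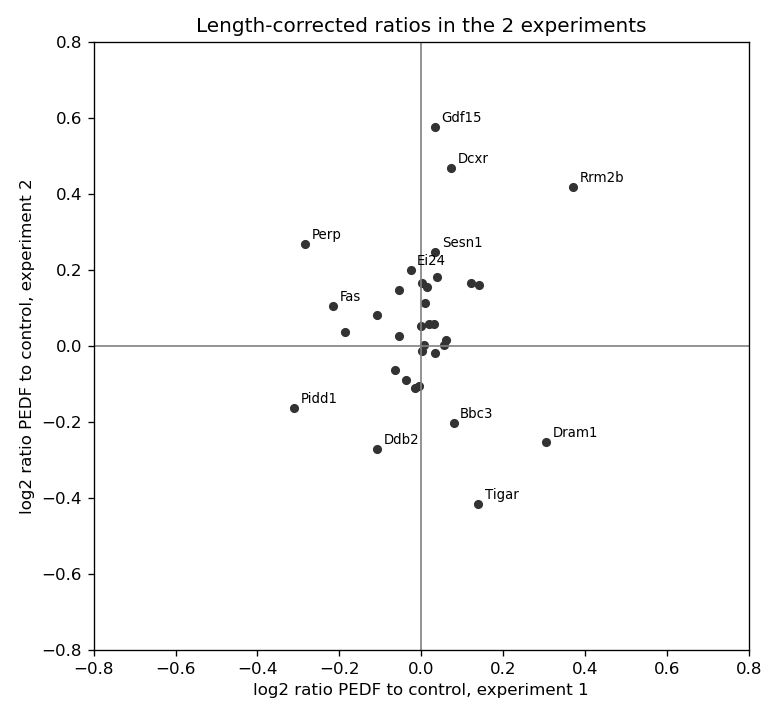
Length-corrected log2 ratio of PEDF to control in experiment 1 (horizontal) and experiment 2 (vertical), with a point for each of the 34 p53 target genes and names where a ratio exceeds 0.2 in size in either experiment. There are 15 points above 0 in both experiments, 6 below 0 in both and 13 with opposite signs, with Rrm2b high in both and Tigar, Dram1 and Perp far from 0 in opposite directions.

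The difference between the experiments was also set beside counting error, on CPM without the length correction. The 95% interval of the difference between the 2 log2 ratios, from counting error only, left out 0 in 10 of the 34 genes (29.4%) and in 19.5% of the 10453 genes with as many counts. Such intervals are too narrow where several reads are PCR copies of 1 molecule. Without the length correction, the difference of experiment 1 minus experiment 2 was -0.59 for Perp (-0.89 to -0.28), 0.55 for Tigar (0.17 to 0.93), -0.58 for Gdf15 (-1.01 to -0.15) and -0.44 for Dcxr (-0.69 to -0.19).

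Between the MEF preparations, the median size of the log2 fold change, without its sign, was 0.093 in the p53 target genes. It was 0.081 in the 10453 genes with at least as many counts, and for PEDF without the block it was 0.083 in the p53 target genes. Between experiment 2 and experiment 1, with the treatment as a term, edgeR gave none of the 34 genes an adjusted p under 0.05, where 4.49% of all genes tested had one. An unadjusted p under 0.05 was found for 5 of them in edgeR (14.7%, against 14.8% of all genes tested and 21.0% of the genes with at least as many counts). The log2 fold changes of experiment 2 against experiment 1 ran from -0.27 (Gdf15) to 0.23 (Xpc) with a median of 0.008. All 5 genes of DNA repair and nucleotide supply were higher in experiment 2 (0.089 to 0.23), and 6 of the 7 genes of the redox and metabolism group were lower, with none of these 12 past the threshold. In the same comparison all 8 macrophage markers were lower in experiment 2 (median -0.37, 1 with an adjusted p under 0.05 in edgeR), as were 7 of the 8 epithelial and keratinocyte markers (median -0.20, with 1 marker past the threshold in edgeR), while 8 of the 10 fibroblast markers were higher (median 0.10, 2 past the threshold in each direction). Of the skeletal muscle markers 2 of 6, and of the neural markers 1 of 5, were higher past the threshold. Their part in the values was not tested. Plk2 had the smallest adjusted p, 0.0631 in edgeR, and stood at 0.15 ± 0.050 on the log2 scale (standard error).

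The p53 gene itself and its best known targets did not pass the threshold in any of the fits of PEDF against control. Trp53 had 160.6 and 158.5 CPM in the control and PEDF libraries of experiment 1 and 160.8 and 157.8 CPM in those of experiment 2. The difference was -0.024 ± 0.069 on the log2 scale (standard error), with an adjusted p of 0.957 in edgeR. Cdkn1a, the inhibitor of cyclin-dependent kinases, had 369.4 and 383.6 CPM in experiment 1 and 350.9 and 381.8 CPM in experiment 2. The difference was 0.088 ± 0.068 on the log2 scale (standard error), with an adjusted p of 0.802 in edgeR. Mdm2 had 126.2 and 125.3 CPM in experiment 1 and 145.3 and 134.3 CPM in experiment 2. The difference was -0.065 ± 0.080 on the log2 scale (standard error), with an adjusted p of 0.897 in edgeR, and it was -0.16 without control replicate 1, -0.12 without PEDF replicate 2, -0.017 without PEDF replicate 1 and 0.040 without control replicate 2. RNA levels say nothing of the amount or activity of the p53 protein, which was not measured in these libraries.

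A list of 23 regulators of p53 held kinases, ubiquitin ligases, acetyltransferases and family members, with Trp53 itself among them. Mdm2 was on this list and also on that of the other targets. Of the 23 genes, 22 were tested, and edgeR without the block gave none of them an adjusted p under 0.05. With the block 2 of the 22 did, against 3.75% of all genes tested, both lower with PEDF (Mdm4 and Usp7, which act on p53 and Mdm2), and none did after the length correction. Their median log2 fold change was -0.083 without the block and -0.060 with the block and the correction, and 5 of the 22 were above 0 in each fit. Of 25 other p53 targets, Cdkn1a and Mdm2 included, none passed this threshold without the block, Ak1 (higher) and Plxnb2 (lower) passed it with the block, and none passed it after the correction. Their median was -0.017 without the block and -0.026 with the block and the correction. Unadjusted p-values under 0.05 without the block numbered 2 in each list in edgeR, where 6.88% of all genes tested had one, and 0 in each in DESeq2.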

How the data were processed

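RNA of 2 control and 2 PEDF libraries was analyzed. The authors trimmed paired reads with Trimmomatic 0.38, aligned them with HISAT2 2.1.0 and used featureCounts 1.6.3 to count the reads that mapped uniquely to a gene, and the counts were deposited without normalization. TPM values were deposited as well. For 98.1% to 98.2% of genes they fit, within 0.1%, counts divided by the exon length of GENCODE M21 (GRCm38). The submitters' processing notes name mm10. The library kit is directional, but the strand setting of the counting is not given in the sources used here. Of the 34 genes, 5 overlap an exon of a gene on the opposite strand (Ddb2, Gadd45a, Ei24, Rrm2b and Tigar), so their counts are uncertain, and Bax and Ephx1 overlap genes on their own strand that had 0 counts. No row of the counts lacks a gene name.

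edgeR 4.0.16 in R 4.3.3 was used for the comparisons (TMM factors, quasi-likelihood test with robust dispersions). Genes needed 10 counts or more over the 4 libraries, which 19384 had, and p-values were adjusted over these by the Benjamini-Hochberg method. The standard error is the log2 fold change divided by the square root of F. Levels between genes are compared as TPM, and levels between libraries as CPM. As in the study, whose authors used DESeq2 with no stated covariate, the main comparison had the treatment as its only term. Fold changes, standard errors and adjusted p-values of PEDF against control come from this comparison where no other fit is named. The experiment given by the labels entered as a block in further fits. The length correction fitted a natural spline of 5 degrees of freedom in log2 exon length to how far each library departed from the average library on the log2 scale, using genes whose mean log2 CPM exceeded 3, and used it as an offset. Per the labels, the control and PEDF libraries of an experiment come from the same embryos. The deviations of same-numbered libraries correlated with r = 0.423 across 10722 genes, and genes are not independent replicates. With 2 libraries a group, p-values rest on few samples.

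The alternatives were DESeq2 1.42.0, RLE factors, no filter, filterByExpr, the block with and without corrections for length and GC content, limma 3.58.1 on log2(TPM + 1), and each library left out. On simulated data for PEDF against control with 200 of 19384 genes changed 4-fold, the test without a block called 169 of them and 0 unchanged genes, the block 176 and 8, the block with length correction 176 and 7, DESeq2 153 and 0, and limma 157 and 6. When the simulation also carried a trend with length, the block called 181 and 19, and the block with length correction 179 and 8. Without the block, the largest rise among the 34 genes was 1.29-fold (Gdf15 and Dcxr). The simulation, with changes of 4-fold only, does not show how often changes of that size would be found.

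The 34 genes and the lists were chosen with earlier results of these data known. Values in every library are given for genes called in a fit, for the 3 highest and 3 lowest levels, and for the largest rise and fall in each functional group. Outside the 34, the rule adds Trp53, Mdm2 and Cdkn1a. Perp, Fas and Ccng1 are given by library in the comparison outside this rule, chosen after their values were seen, as are the ratios of Sesn1, Dram1 and Gdf15 between experiments and the names Mdm4, Usp7, Ak1 and Plxnb2.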

Additional observations from a re-analysis of the deposited data

How the results depend on the processing

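The count of 0 p53 target genes with an adjusted p under 0.05 became 1 with the replicate block, 1 with the block and the length and GC correction, and 1 without control replicate 1 (0 to 1 over the libraries left out); the gene was Dcxr each time. The block changed no other call among the 34 genes. The adjusted p of Dcxr ranged from 0.00211 to 0.999 over its alternatives, and without control replicate 1 it was 0.0308 in edgeR with a log2 fold change of 0.51. The count of 0 after the length correction with the block became 1 without the correction and 1 with GC content added. The median of 0.024 with the block and the correction became 0.065 without the correction. Over all genes tested the calls went from 1 without the block to 726 with it, 419 with the block and length, and 406 with GC content added.

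With the block and the length correction the log2 fold change turned sign for Bbc3 (-0.064), Pmaip1 (-0.008), Fas (-0.054), Zmat3 (0.039), Btg2 (-0.011) and Gadd45a (-0.056). With GC content added it did so for Bbc3 (-0.030), Pmaip1 (-0.044), Fas (-0.084), Perp (-0.008), Aen (0.002), Zmat3 (0.046), Btg2 (-0.015) and Gadd45a (-0.063), and by limma on log2(TPM + 1) for Bbc3 (-0.015) and Fas (-0.007). When single libraries were left out, the sign changed for 16 of the 34 genes and for Mdm2, with ranges of -0.126 to 0.144 (Bbc3), -0.025 to 0.108 (Pmaip1), -0.171 to 0.202 (Fas), -0.011 to 0.06 (Tnfrsf10b), -0.086 to 0.24 (Perp), -0.087 to 0.037 (Aen), -0.043 to 0.212 (Ei24), -0.015 to 0.127 (Trp53inp1), -0.135 to 0.264 (Dram1), -0.04 to 0.092 (Gadd45a), -0.144 to 0.031 (Plk2), -0.022 to 0.208 (Polk), -0.193 to 0.004 (Ercc5), -0.099 to 0.033 (Sesn2), -0.277 to 0.033 (Tigar), -0.016 to 0.163 (Cd82) and -0.163 to 0.04 (Mdm2). The other alternatives kept the direction and the side of the threshold in 272 of 290 comparisons of a single gene (without 6 for which DESeq2 gave no adjusted p), and the left-out libraries in 125 of 148; the cause of the other changes was not tested. With a single library left out, the lone library of its group is assumed to vary like the other group. The block could not be fitted with a library left out, because no residual degrees of freedom remain.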
